A study of Rattus norvegicus with 3 samples.

Results

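The DNA repair and damage signalling genes described here are a list of 41 genes for homologous recombination, the Fanconi pathway, break sensing and damage kinases, mismatch repair, end joining, base excision and single strand breaks, and nucleotide excision. A gene was taken as measured when a probe carried its symbol in the platform annotation, with an older alias accepted, which applied to Mre11 (Mre11a on the array). Of the 41 genes, 35 were measured with 40 probes, among 15925 named genes and 41103 probes in all. Blm, Fancg, Fancl, Atr, Msh6 and Prkdc had no probe of that name and were not analysed here. The members were picked by their known function, but with earlier results of these data known.

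The cells were NR8383, an established rat alveolar macrophage line, a phagocyte of the lung surface that can be grown in culture. One culture group received single-wall carbon nanotubes of the kind called CNT-1 and another the kind called CNT-2, both free of impurities per the labels, at 0.1 mg/mL in 1 mg/mL bovine serum albumin for 24 h. The control was sampled at the same time and is labelled both as untreated and as an albumin solvent control, so which it was is not settled. RNA of the whole culture was measured on 1-colour arrays, and the deposited table has 1 column for each of these 3 groups. The sources used here do not say how CNT-1 differs from CNT-2.

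Each deposited value is a log2 distance from a baseline that the authors set for each probe. That baseline and the base of the logarithm are not stated, and log2 was presumed from the range of the values. Because of it the values compare columns for 1 gene and say nothing of which gene is more abundant. With 1 column per group no test between conditions was possible, no p-value is given, and every "higher" or "lower" describes these columns only. The spread given for genes with 2 or more probes (probe SD) is technical. A gene given without a probe SD had 1 probe, which was the case for 30 of the 35 members. A gene is counted as lower or higher when it differed by at least 1 log2 unit, which is 2-fold.

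Cells repair DNA by several routes that meet different kinds of damage. Breaks across both strands are sensed by the complex of Mre11, Rad50 and Nbn, which activates the kinase Atm. They are then joined end to end by the Ku proteins and ligase 4, or copied from the sister chromatid by homologous recombination, with Brca1, Bard1, Palb2 and Brca2. The Fanconi proteins unhook crosslinks, while damaged single bases and bulky lesions are cut out by base excision and nucleotide excision. Recombination and Fanconi genes are known to be transcribed mostly in dividing cells, whereas Ku and excision genes are expressed more evenly, also in macrophages.

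In the CNT-2 column 12 of the 35 members were at least 2-fold below control and none was 2-fold above it. Over all 15925 genes 6.56% were at least 2-fold lower and 10.1% at least 2-fold higher in that comparison. The members had a median of -0.79, beside 0.04 for all genes, and 30 of 35 lay below 0, beside 46.4% of all genes. In the CNT-1 column the members had a median of -0.03, beside -0.04 for all genes, and 22 of 35 lay below 0, beside 57.8% of all genes. Of the 35 members 1, Xrcc2, was at least 2-fold lower in CNT-1 and none was 2-fold higher, beside 2.15% lower and 1.16% higher of all genes. The 2 comparisons share the control column. In whole cultures less RNA per cell and fewer cells that make the RNA cannot be told apart.

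The centring of the columns sets how many members pass the threshold. With each column centred on its 75th percentile, the median of all genes in CNT-2 moved to -0.40 and that of the members to -1.23, so the members lay 0.83 below all genes in both cases, and 22 members were 2-fold lower. Quantile normalization, which gives the 3 columns the same spread, was applied to the deposited distances from the baseline, not to intensities. It left 3 members 2-fold lower, namely Xrcc2, Neil3 and Chek1. The members then had a median of -0.38, beside -0.03 for all genes. Over all genes it moved the share at least 2-fold lower from 6.56% to 4.17% in CNT-2, and from 2.15% to 4.45% in CNT-1. Of calls over all genes, 60.7% were on the higher side in CNT-2 as reported, 26.7% with the 75th percentile and 42.1% with spike-in centring. In CNT-1 the share was 35.0% as reported and 45.9% after quantile normalization.

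**Figure D1:**
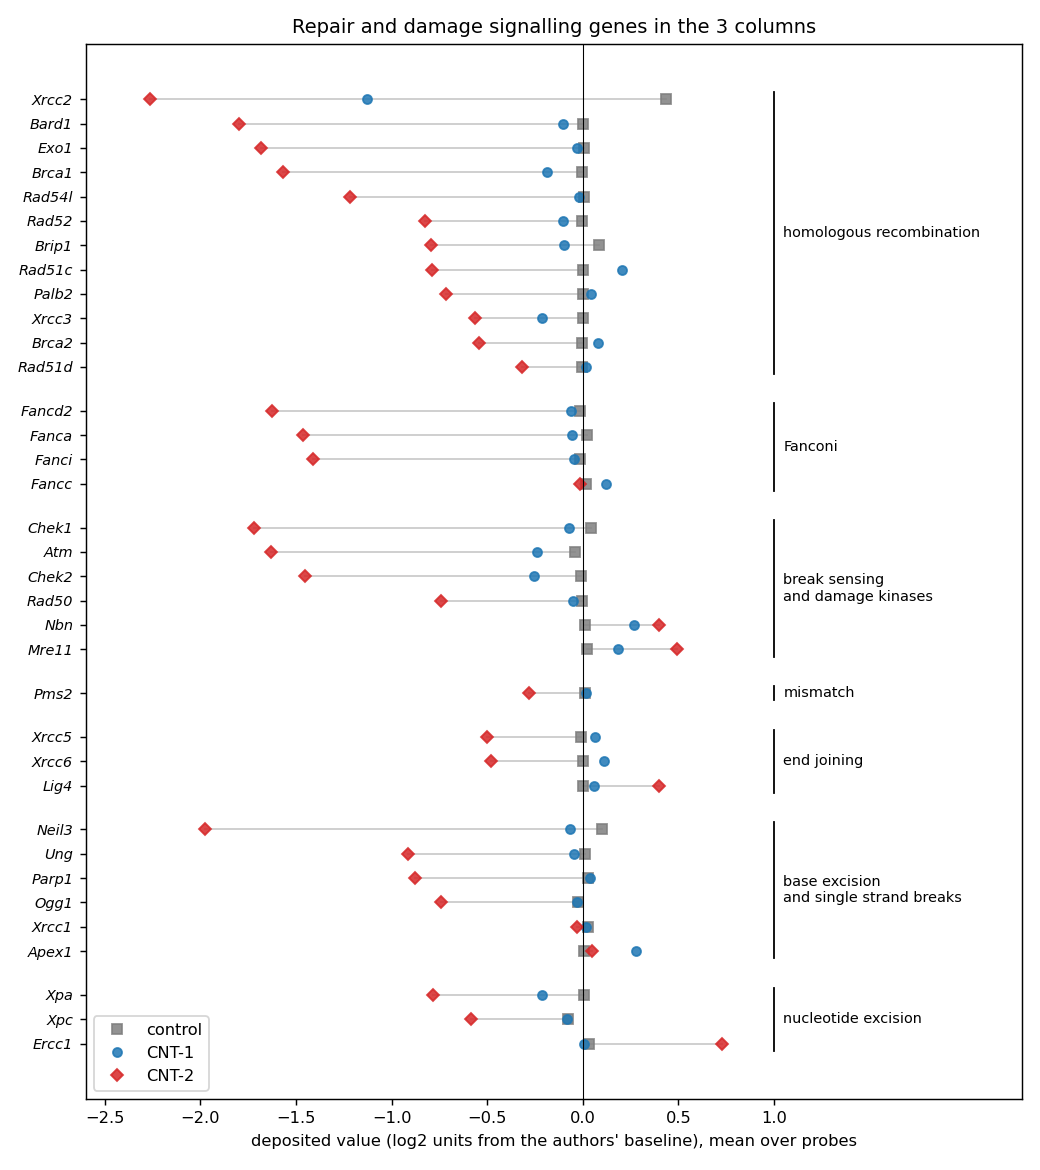
Deposited values (log2 units from the authors' baseline, mean over probes) of the 35 measured genes in the control (grey squares), CNT-1 (blue circles) and CNT-2 (red diamonds) columns, grouped by repair class; grey lines join control and CNT-2. For most genes the CNT-1 circle sits near the control square and the CNT-2 diamond to the left, as for Bard1 at -1.80, while Ercc1 at 0.73 is furthest right in CNT-2.

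Both control and CNT-1 values of most members lay close to the baseline. In the control column 33 of 35 members were within 0.1 of 0, the exceptions being Xrcc2 at 0.44 and Neil3 at 0.10. Counted by probe, 36 of the 40 member probes were near 0 there, beside 72.6% of all gene probes. CNT-2 was the lowest of the 3 columns for 30 members and the highest for 4, and it lay between the other columns for 1. The order of the columns was not counted over all genes.

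The promoters of 4 members are shown because many members were low together in CNT-2, and because E2F factors are known to drive genes of the dividing cell. Bard1, Chek1 and Fancd2 were the lowest members in CNT-2 with an E2F motif in the window, and Ercc1 was the highest member. They were picked by motif and value, so these 4 alone cannot show a link between motif and direction. Exo1, at -1.69 in CNT-2 minus control, was lower than Fancd2 and held no E2F match. Each window runs from 250 bases before to 50 bases after the annotated gene start, from RefSeq on build GRCr8, in the direction of the gene. Capitals mark matches, on either strand, to the E2F motif written as TTTCGCG, in its variant form as TTTGGCG, or in a further form as TTTCCCG. The windows are chr9:80143706-80144005 on the minus strand for Bard1, chr8:44629794-44630093 on the minus strand for Chek1, chr4:148234458-148234757 on the plus strand for Fancd2 and chr1:88124491-88124790 on the plus strand for Ercc1.
Bard1: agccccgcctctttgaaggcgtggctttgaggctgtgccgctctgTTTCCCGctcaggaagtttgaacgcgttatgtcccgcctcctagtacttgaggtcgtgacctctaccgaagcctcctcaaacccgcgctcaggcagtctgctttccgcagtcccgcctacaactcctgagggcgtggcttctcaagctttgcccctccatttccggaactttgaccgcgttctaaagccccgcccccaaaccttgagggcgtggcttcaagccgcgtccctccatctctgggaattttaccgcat
Chek1: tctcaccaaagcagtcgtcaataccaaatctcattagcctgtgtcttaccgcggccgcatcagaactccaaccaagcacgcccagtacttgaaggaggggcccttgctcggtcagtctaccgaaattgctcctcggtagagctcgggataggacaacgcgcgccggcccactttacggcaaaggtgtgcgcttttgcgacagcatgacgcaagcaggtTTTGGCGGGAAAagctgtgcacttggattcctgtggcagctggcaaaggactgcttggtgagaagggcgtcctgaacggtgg
Fancd2: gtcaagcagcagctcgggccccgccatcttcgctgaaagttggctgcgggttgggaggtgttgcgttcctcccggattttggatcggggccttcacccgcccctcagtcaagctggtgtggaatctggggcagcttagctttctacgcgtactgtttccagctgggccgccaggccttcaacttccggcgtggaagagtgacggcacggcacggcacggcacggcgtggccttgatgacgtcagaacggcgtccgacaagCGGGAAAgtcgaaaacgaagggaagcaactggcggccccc
Ercc1: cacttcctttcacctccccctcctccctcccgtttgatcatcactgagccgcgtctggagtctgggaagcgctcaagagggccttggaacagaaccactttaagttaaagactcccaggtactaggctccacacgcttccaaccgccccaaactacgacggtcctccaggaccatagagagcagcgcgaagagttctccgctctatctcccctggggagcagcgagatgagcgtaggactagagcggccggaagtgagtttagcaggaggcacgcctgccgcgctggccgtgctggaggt

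Chek1 held 2 partly overlapping matches on opposite strands, starting at positions -32 and -27 from the gene start. The match began at position 11 in Fancd2 and at position -205 in Bard1. Ercc1 had none in this window. Of the 35 measured members 30 had a promoter in the table, and 8 of those 30 (26.7%) held an E2F match, against 5.89% of all 27457 promoters of this length and 7.55% of the 13146 promoters of measured genes. Xrcc2, Neil3 and Chek2, each at least 2-fold lower in CNT-2, had no promoter there, and neither had Nbn and Xpa. Among the 9 members with a promoter that were at least 2-fold lower in CNT-2, 4 held a match, namely Bard1, Chek1, Fancd2 and Atm. Among the other 21 members 4 did: Ung, Rad50, Rad51d and Fancc. Over all measured genes at least 2-fold lower in CNT-2, 115 of 856 promoters (13.4%) held one, and 11.6% of genes with a match were that low against 6.1% of those without. The median CNT-2 difference was -1.26 for the 8 members with a match and -0.64 for the 22 without, and the ranges overlapped, from -1.80 to -0.03 against -1.69 to 0.70.

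For the other motifs the member share was compared with the same table. CCAAT, the NF-Y motif, stood in 12 of 30 member promoters (40.0%), 37.7% of all promoters and 38.0% of measured genes. TTTGAA, the core of the CHR element, stood in 6 of 30 (20.0%), 18.1% of all and 14.8% of measured genes. GGGCGG, the SP1 motif, stood in 20 of 30 (66.7%) and 34.9% of all, but in 51.3% of measured genes. Among measured genes at least 2-fold lower in CNT-2 the shares were 45.4% for CCAAT, 22.1% for TTTGAA and 51.2% for GGGCGG. Both strands were searched, and matches of different motifs may overlap, as the E2F and SP1 matches in Rad51d do. A match is a run of letters and not a measured site.

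**Figure D2:**
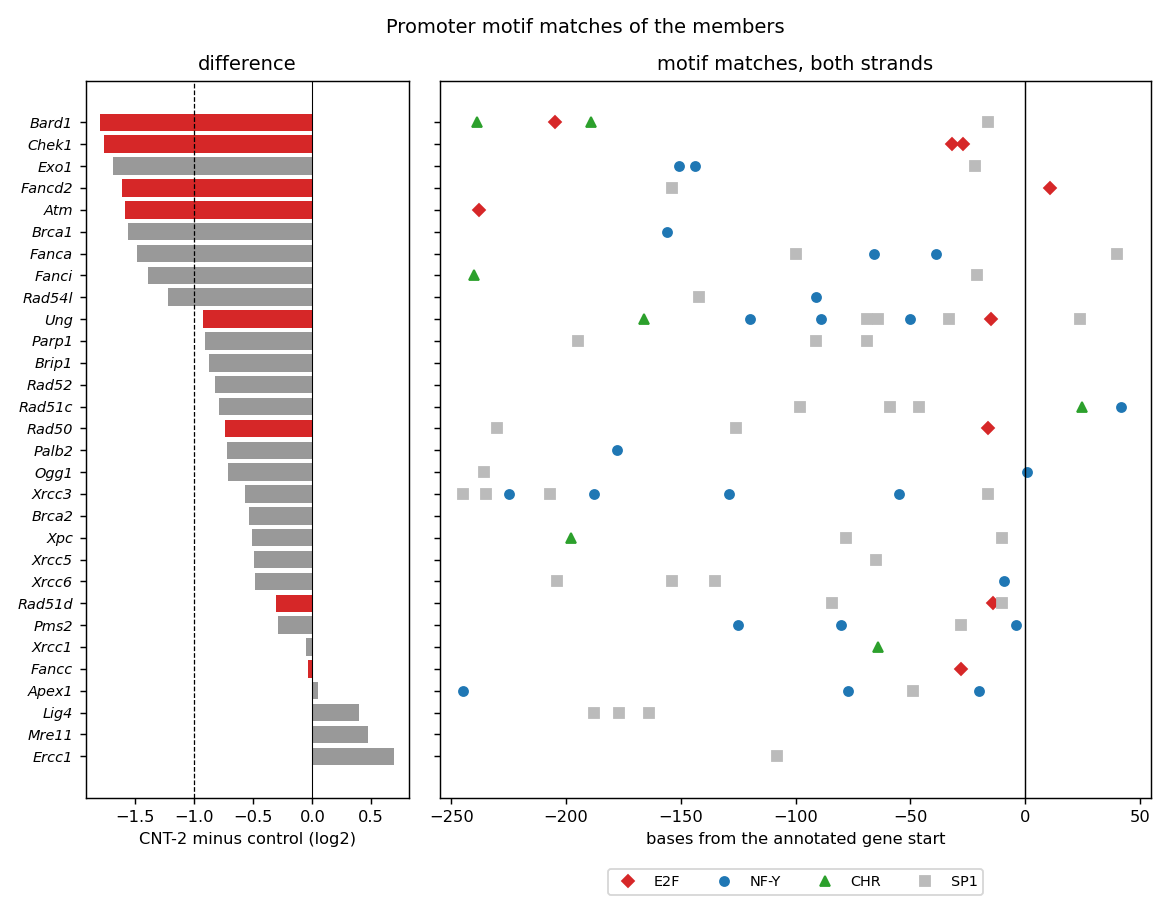
Left, CNT-2 minus control (log2) for the 30 members with a promoter, with red bars for those holding an E2F match and a dashed line at -1. Right, start of each motif match in bases from the annotated gene start for E2F, NF-Y, CHR and SP1 on both strands; 4 of the 9 lowest bars are red and 4 of the other 21.

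Homologous recombination genes were all lower in CNT-2 than in control, from -2.70 to -0.31, with a median of -0.85. Of the 12, 5 (41.7%) were at least 2-fold lower, beside 6.56% of all genes. After quantile normalization only Xrcc2 of this class stayed past 2-fold. Brca1, a ubiquitin ligase that directs breaks to recombination, was at -0.004 in control, -0.18 in CNT-1 and -1.57 in CNT-2. Its obligate partner Bard1 was at 0.001, -0.10 and -1.80. Both genes were thus near the baseline in control and CNT-1 and low in CNT-2, by -1.56 and -1.80, or 2.95-fold and 3.47-fold.

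Palb2 and Brca2, which act together at the break after Brca1, were lower by less. Palb2 was at 0.002 in control, 0.04 in CNT-1 and -0.72 in CNT-2. Brca2 was at -0.004, 0.08 and -0.54, with a CNT-2 difference of -0.54 ± 0.07 (probe SD, 2 probes). Brca1 and its partner were therefore further from control than Palb2 and Brca2, in these columns. Brip1, a helicase bound to Brca1, had 2 probes that disagreed. One stood at 0.147, -0.123 and 0.167 in control, CNT-1 and CNT-2, and the other at 0.027, -0.071 and -1.753. The first is background-like in control, that is within 0.02 of the negative-control probe at 0.157. The mean of both, -0.88 with a probe SD of 1.27, rests on the second.

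Among the genes that act on the recombining DNA itself, Exo1, a nuclease that trims break ends, was at 0.01 in control, -0.03 in CNT-1 and -1.68 in CNT-2. Rad54l, a motor protein of recombination, was at 0.01, -0.02 and -1.22. CNT-1 and control differed by at most 0.04 for both, whereas CNT-2 was 3.22-fold and 2.34-fold below control. Rad52, which anneals single strands, was at -0.002, -0.10 and -0.82, and stayed short of 2-fold.

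Rad51c, Rad51d, Xrcc2 and Xrcc3, accessory proteins of recombination, spread widely. Rad51c was at -0.001 in control, 0.20 in CNT-1 and -0.79 in CNT-2. Rad51d was at -0.005, 0.02 and -0.32, and Xrcc3 at 0.003, -0.21 and -0.56. In CNT-2 Rad51d and Xrcc3 were thus closer to control than most recombination genes. Xrcc2 was at 0.44 in control, -1.13 in CNT-1 and -2.26 in CNT-2. It had the largest differences of all 35 members, -1.57 in CNT-1 and -2.70 in CNT-2, and only 0.308% of all genes were as low in CNT-2. Its control value lay further from 0 than that of any other member, and 72.6% of all gene probes were within 0.1 of 0 in control. Counted from the baseline instead of the control column, its values were -1.13 and -2.26.

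The Fanconi group split into 3 low genes and 1 at the control level. Fancd2 and Fanci form the pair that is tagged with ubiquitin at a crosslink, and Fanca and Fancc belong to the core complex that tags it. Fancd2 was at -0.01 in control, -0.06 in CNT-1 and -1.62 in CNT-2, and Fanci at -0.02, -0.05 and -1.41. Fanca was at 0.02, -0.06 and -1.46. All 3 had CNT-1 within 0.1 of control and CNT-2 at 3.06-fold, 2.63-fold and 2.80-fold below it. Fancc stood at 0.02, 0.12 and -0.02, a CNT-2 difference of -0.03. The median of the 4 was -1.44 in CNT-2 and -0.04 in CNT-1.

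Break sensing genes lay on both sides of control in CNT-2. Of the sensor complex, Rad50, the structural ATPase, was at -0.01 in control, -0.05 in CNT-1 and -0.74 in CNT-2. The nuclease Mre11 stood at 0.02, 0.19 and 0.49, and Nbn, which recruits Atm, at 0.01, 0.27 and 0.40. Mre11 and Nbn thus had their highest value in CNT-2 and Rad50 its lowest. With 75th percentile centring the differences of Mre11 and Nbn in CNT-2 became 0.04 and -0.05, so the direction for Nbn was not settled, while Rad50 stayed lower.

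The 3 measured damage kinases were all 2-fold lower in CNT-2, beside 6.56% of all genes. Atm, the kinase for broken ends, was at -0.04 in control, -0.24 in CNT-1 and -1.63 in CNT-2, with 2 probes at -1.42 and -1.76 for CNT-2 minus control. Chek1, the checkpoint kinase of stalled replication, was at 0.04, -0.07 and -1.72. Chek2, the checkpoint kinase downstream of Atm, was at -0.01, -0.26 and -1.45. These were 3.01-fold, 3.39-fold and 2.72-fold below control. After quantile normalization the CNT-2 differences of Atm, Chek1 and Chek2 were -0.59, -1.105 and -0.68, so of these kinases only Chek1 stayed past 2-fold. In CNT-1 they differed from control by -0.20, -0.12 and -0.25, none past the threshold.

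End joining genes were closer to control. Xrcc5 and Xrcc6, the Ku proteins that cap broken ends, were at -0.01 and 0.00 in control, 0.06 and 0.11 in CNT-1, and -0.50 and -0.48 in CNT-2. Lig4, the ligase that seals the joint, stood at -0.001, 0.06 and 0.40. The Ku subunits, which work as a pair, had nearly the same difference in CNT-2, -0.49 and -0.48, and the ligase lay on the other side of control. With 75th percentile centring Lig4 was at -0.04, so its direction was not settled. Pms2, the 1 mismatch repair member measured, was at 0.01 in control, 0.02 in CNT-1 and -0.28 in CNT-2. Its probes were at -0.21 and -0.38 for CNT-2 minus control. For CNT-1 minus control they had opposite signs, at 0.099 and -0.094.

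Base excision held 1 of 6 genes past the threshold, on the lower side (16.7%, beside 6.56% of all genes). Neil3, a glycosylase found mostly in dividing cells, was at 0.10 in control, -0.07 in CNT-1 and -1.98 in CNT-2, 4.23-fold below control. Only 0.923% of all genes were as low. Ung, which removes uracil, was at 0.01, -0.04 and -0.91, and Ogg1, which removes oxidised guanine, at -0.02, -0.03 and -0.74. Parp1, which senses strand breaks, was at 0.03, 0.04 and -0.88, and its 2 probes agreed within 0.01 of their mean (-0.91 ± 0.01, probe SD, for CNT-2 minus control). All 3 were lower in CNT-2 without reaching 2-fold, and near control in CNT-1. Xrcc1 and Apex1 lay near control in CNT-2. The scaffold Xrcc1 was at 0.03, 0.02 and -0.03, and the abasic site nuclease Apex1 at 0.01, 0.28 and 0.05.

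Nucleotide excision genes differed in sign. Xpa, which verifies the lesion, was at 0.01 in control, -0.21 in CNT-1 and -0.79 in CNT-2. Xpc, which finds it, was at -0.08, -0.08 and -0.59. The difference of Xpc in CNT-2 was -0.51, and 0.18 after quantile normalization. Ercc1, subunit of the nuclease that cuts beside the lesion, stood at 0.03, 0.01 and 0.73. It was the member furthest above control in CNT-2, at 0.70, and stayed above 0 under each scaling tried, the lowest value being 0.21 after quantile normalization.

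**Figure D3:**
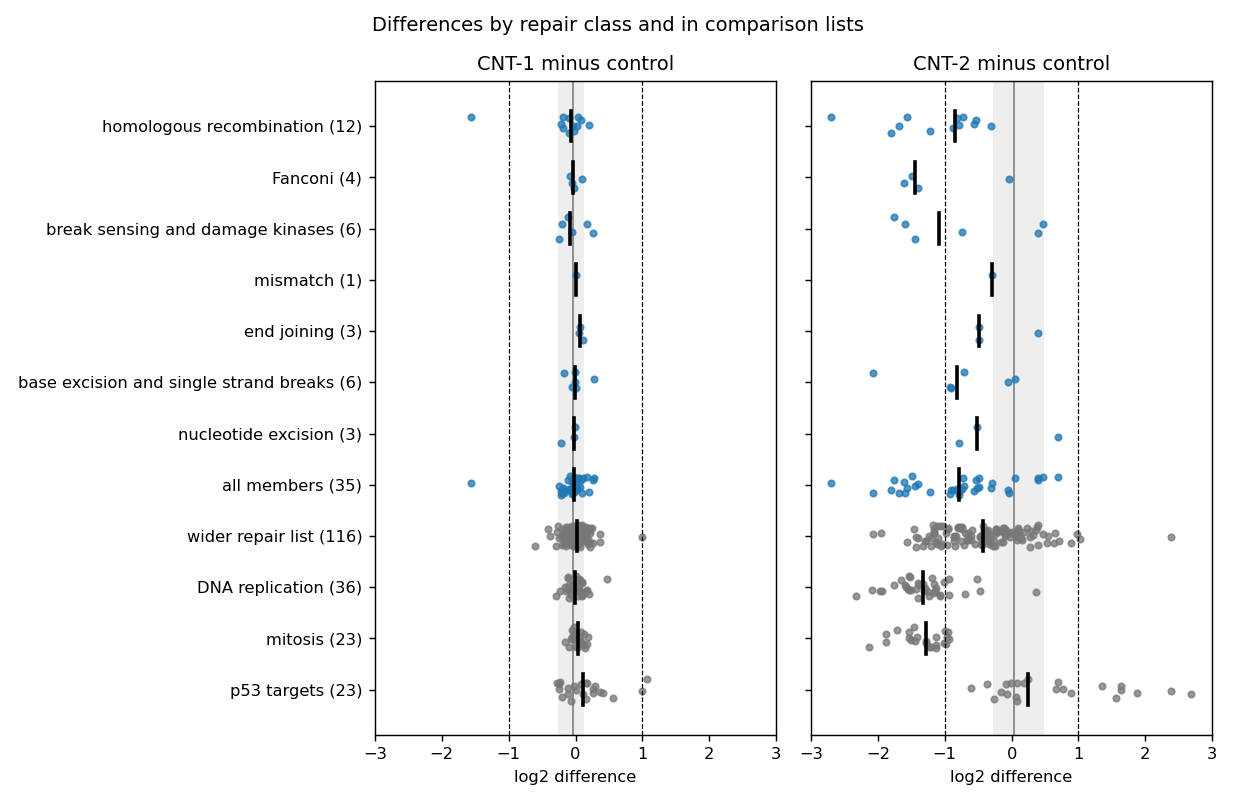
Log2 differences of CNT-1 and CNT-2 from control for each repair class, all members, the wider repair list and 3 comparison lists, 1 point per gene with the number of genes in brackets and black bars for medians. The grey band is the middle part of all genes between their quartiles, dashed lines mark 2-fold, and the class medians lie below the all-gene median (grey line) in CNT-2 and on both sides of it in CNT-1.

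Set side by side in CNT-2, the class medians were -1.44 for Fanconi, -1.09 for break sensing and kinases, -0.85 for recombination, -0.81 for base excision, -0.51 for nucleotide excision, -0.48 for end joining and -0.29 for Pms2 alone. Neighbours in this order overlapped in their ranges, and the classes hold 1 to 12 genes, so the order is a description of these columns. Quantile normalization moved the nucleotide excision median to 0.18, the Fanconi median to -0.67 and the end joining median to -0.18, and put recombination, at -0.53, below break sensing and kinases, at -0.45. All 12 members at least 2-fold lower belonged to recombination, Fanconi, the kinases or base excision. None of the 7 measured members of end joining, mismatch and nucleotide excision repair was 2-fold lower. Over all genes 6.56% were, and for 7 genes this count is near that share. With 75th percentile centring Xpa passed, at -1.23. In CNT-1 the class medians ran from -0.08 for break sensing and kinases to 0.07 for end joining, and 14 of 35 members changed sign under at least 1 of the scalings tried.

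**Figure D4:**
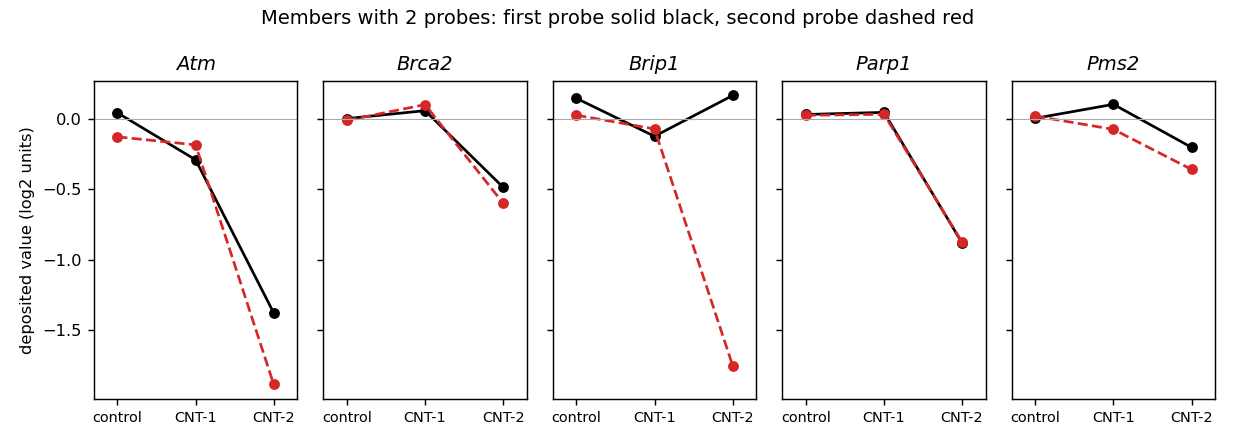
Deposited values (log2 units) of each probe in the control, CNT-1 and CNT-2 columns for the 5 members with 2 probes, the first probe in solid black and the second in dashed red. The probes of Atm, Brca2 and Parp1 change in the same direction. Those of Pms2 lie on opposite sides of 0 in CNT-1, at 0.104 and -0.074, and those of Brip1 part in CNT-2, at 0.167 and -1.753.

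CNT-2 was also compared with CNT-1 directly. This comparison uses the same CNT-2 column as the one against control, so it is no second observation. The members had a median of -0.71, beside 0.15 for all genes, and 31 of 35 lay below 0, beside 36.7% of all genes, with 12 of 35 at least 2-fold lower and none higher, against 4.65% lower and 9.32% higher of all genes. Of calls over all genes 66.7% were on the higher side as reported, 55.7% with median, 52.1% with quantile, 42.4% with spike-in and 32.9% with 75th percentile scaling. After quantile normalization 1 of 35 members was 2-fold lower, 2.86% beside 2.32% of all genes, so the members' share was then near that of all genes. Neil3 was at -1.91, Bard1 at -1.69, Exo1 at -1.65, Chek1 at -1.65 and Fancd2 at -1.56. Rad51c, at -0.996, lay just inside the threshold, and Xrcc2 was at -1.14. Ercc1 was the highest at 0.72. Mre11, Nbn and Lig4 were at 0.31, 0.13 and 0.34, and each became negative under at least 1 scaling.

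A wider list of 136 other repair genes was set beside the members, of which 116 were measured. In CNT-2 25 of these genes (21.6%) reached 2-fold below control and 2 (1.72%) 2-fold above, beside 6.56% and 10.1% of all genes. The wider list had a median of -0.43. Its lowest genes were Clspn, the adaptor that lets Chek1 be activated, at -2.08 ± 0.07 (probe SD, 2 probes), and Timeless, a fork protection protein, at -1.95. Next came Rad54b, a relative of Rad54l, at -1.57, Topbp1, an activator of the replication stress kinase, at -1.46 ± 0.20 (probe SD, 2 probes), and Rad51ap1, an accessory protein of recombination, at -1.43. The fork remodeller Hltf was at -1.43 ± 0.06 (probe SD, 3 probes). These act mostly at stalled replication forks or in recombination.

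On the other side, Ddb2, which recognises ultraviolet lesions and is a known p53 target, was at 0.005 in control, 1.00 in CNT-1 and 2.38 in CNT-2. It was the furthest above control of the 116 genes in CNT-1, at 0.999 just short of 2-fold, and in CNT-2, at 2.38. The end joining factor Nhej1 was at 1.02 ± 0.13 (probe SD, 2 probes) in CNT-2, the poly(ADP-ribose) polymerase Parp3 at 0.97, Mdm2, the ubiquitin ligase of p53, at 0.89 ± 0.38 (probe SD, 2 probes), the checkpoint clamp loader Rad17 at 0.71 and the demethylase Alkbh3 at 0.65. In CNT-1 none of the 116 genes passed the threshold, beside 2.15% lower and 1.16% higher of all genes, and their median was 0.02. Against CNT-1, CNT-2 had 24 of the 116 lower (20.7%) and 1 higher (0.862%), Ddb2 at 1.38. Over all genes these shares were 4.65% and 9.32%. Clspn, Timeless, Topbp1, Rad51ap1, Dna2 (a nuclease-helicase of forks and break ends) and Rad54b were lowest there, from -1.89 to -1.48. Nhej1 at 0.82, Parp3 at 0.81, Mdm2 at 0.63, Alkbh3 at 0.61 and Rad17 at 0.55 followed Ddb2.

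The wider list can also be read by repair route. Recombination and fork restart genes had 12 of 26 (46.2%, beside 6.56% of all genes) at least 2-fold lower in CNT-2 and a median of -0.73. Damage signalling had 5 of 25 (20.0%) lower and a median of -0.65. Of 17 base excision genes 1 was lower (5.88%), at a median of -0.14, near the 6.56% lower of all genes. End joining had none of 7 lower, 1 higher (14.3%, beside 10.1% of all genes) and a median of 0.04. Mismatch genes had a median of -0.77 with none of 4 past the threshold. Nucleotide excision genes had a median of -0.24, with 3 of 16 lower (18.8%) and 1 higher (6.25%). Further Fanconi genes had a median of -0.40, with 2 of 9 lower (22.2%). For so few genes, the end joining and mismatch counts are near the shares of all genes. No test of a difference between routes was possible.

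Genes of DNA copying and cell division were low in the same column. Of 36 measured replication genes 30 (83.3%) were at least 2-fold lower in CNT-2, beside 6.56% of all genes, with a median of -1.32. Of 23 mitosis genes 18 (78.3%) were, with a median of -1.28. Both medians lay further below control than that of the repair members. In CNT-1 none of either list passed the threshold, at medians of -0.01 and 0.03. The next list held p53 targets and Gadd45 genes, with 23 measured, not counting Xpc. Of these, 7 (30.4%) reached 2-fold above control in CNT-2, beside 10.1% of all genes. In CNT-1 1 (4.35%) did, beside 1.16% of all genes. The 7 in CNT-2 were Gadd45a, Gadd45b, Gadd45g, Ddb2, Sesn2, Ccng1 and Plk3, and the 1 in CNT-1 was Plk2. In CNT-2 16 of the 23 lay above 0 and 7 below. Cdkn1a at 0.66, Fas at 0.08, Bax at -0.26 and Bbc3 at -0.60 did not pass there. None of the 23 was 2-fold below control in either column, and the medians were 0.24 and 0.12. The replication, mitosis, p53 and wider repair lists were summarised only with the values as deposited, not under the other scalings. Ddb2, Mdm2 and Polk stand in both the wider repair list and the p53 list. The part of dividing cells in the repair values was not tested.

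Control features of the arrays moved in the CNT-2 column too. The 10 spike-in probes were 0.23 ± 0.10 above control there (SD over probes) and -0.05 ± 0.07 in CNT-1. Of the DCP control probes, of unstated purpose, the 11 numbered 0 to 5 averaged 0.22 ± 0.08 in CNT-2 and the 7 with larger numbers -0.18 ± 0.26, grouped so after their values were seen. Alveolar macrophage markers had 4 of 21 (19.0%) at least 2-fold higher and 4 (19.0%) lower in CNT-2. For genes marking epithelium, vessels, fibroblasts and blood cells outside this lineage these counts were 2 (6.9%) and 3 (10.3%) of 29. Over all genes 10.1% were higher and 6.56% lower, so the shares of this second list were near those of all genes. Since the values are distances from a baseline, they cannot show which markers the cells express. The part of these in the repair values was not tested.

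**Figure D5:**
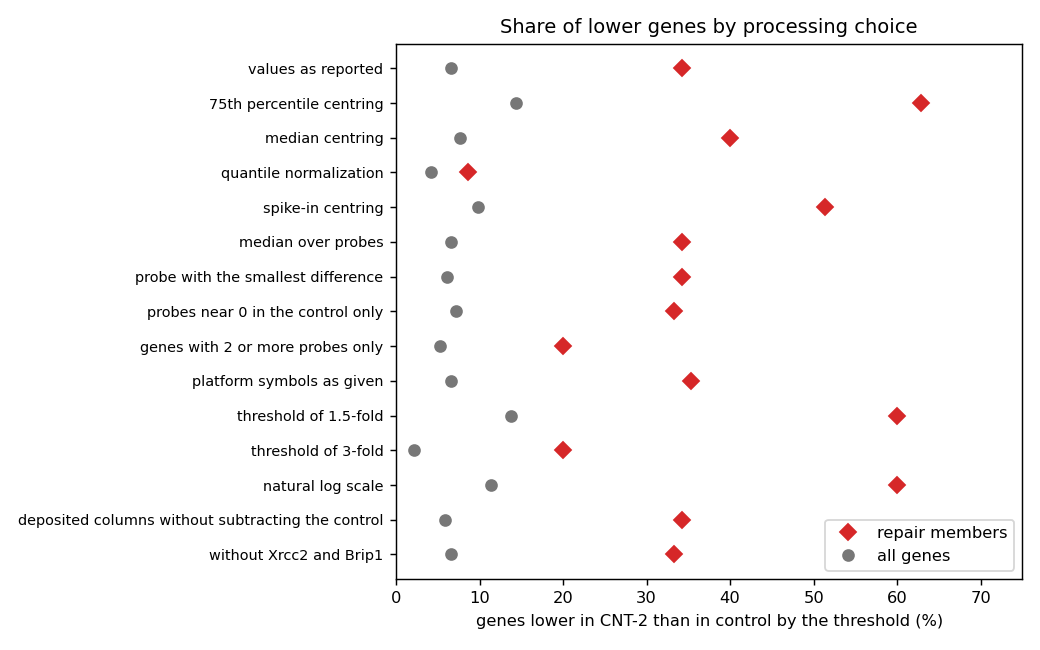
Percent of genes lower in CNT-2 than in control by the threshold, for the repair members (red diamonds) and all genes (grey circles), under each processing choice. The members lie to the right of all genes in each row, from 8.57% against 4.17% after quantile normalization to 62.9% against 14.4% with 75th percentile centring.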

How the data were processed

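Per the labels' protocols, Cy3-labelled cRNA from total RNA was put on 1-colour Agilent arrays. The submitters' processing notes name Feature Extraction 10.7.3.1 as the scan software. The authors deposited 1 column per group, presumed to be log2 values, as distances from an unstated baseline per probe; the sources used here do not give the normalization, nor whether a column is 1 array or an average. The design text states n = 4 without saying of what, so each column was treated as 1 value. Precision is limited by the number of arrays.

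Of the probes, 20932 had 1 gene symbol. RefSeq accessions on GRCr8 named 17424, current symbols 3104 and synonyms 396, and 8 stayed unmatched. Differences were taken per probe and averaged per gene with pandas 2.3.3, and figures drawn with matplotlib 3.10.9. The threshold was 1 log2 unit. The gene summary was tested on simulated data. The members and lists were chosen with earlier results of these data known. Each member is named; from the wider list, the 6 lowest and 6 highest genes per comparison, or all past the threshold where 12 or fewer were. Alkbh2, Mgmt, Rev1, Polh, Poli and Polk in the closing section lie outside that rule and were chosen after their values were seen. Alternatives changed centring, probe summary, probe choice, naming and threshold.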

Additional observations from a re-analysis of the deposited data

Results flagged for a closer look

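Of the array probes, 20080 carried no gene name or several, and no comparison above uses them. Among these, 1266 (6.3%) were at least 1 log2 unit higher in CNT-2 than in control. This is a share of single probes, whereas the 10.1% of named genes counts genes averaged over their probes.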

How the results depend on the processing

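No paired analysis was possible because each group has 1 column, and for the same reason no replicate could be left out. A value was taken as moved when it shifted by more than the probe SD of its gene, or the median probe SD over genes (0.08, 0.19 and 0.17 for CNT-1, CNT-2 and CNT-2 minus CNT-1). No member past 2-fold changed its direction under the alternatives run. With 75th percentile centring 22 members were 2-fold lower than control in CNT-2 (median -1.23) and 21 lower than CNT-1 (median -1.09). Quantile normalization gave 3 and 1, with medians of -0.38 and -0.45 and shares of 8.57% and 2.86% beside 4.17% and 2.32% of all genes, so that the latter was near the share of all genes. It also gave a nucleotide excision median of 0.18 in CNT-2 and 3 class medians below 0 in CNT-1 in place of 5. Spike-in centring gave medians of -1.02 and -0.98 and 2 class medians below 0 in CNT-1. With genes of 2 or more probes only, which leaves 5 members in 4 classes, 0 members passed in CNT-1, 1 in CNT-2 and 1 in CNT-2 minus CNT-1. Of these 5 members 2, 5 and 5 lay below 0, as did 2, 4 and 4 class medians. With probes near 0 in the control only, and without Xrcc2 and Brip1 (chosen after seeing the data), 0 members passed in CNT-1. At a threshold of 1.5-fold 22 members passed in CNT-2, 21 lower and 1 higher, and 23 against CNT-1, 22 lower and 1 higher. At 3-fold 0 passed in CNT-1, 7 in CNT-2 and 4 against CNT-1, all on the lower side. If the deposited values are natural logs, 22 passed in CNT-2, 21 lower and 1 higher, and 20 against CNT-1, 19 lower and 1 higher. Median centring, the median over probes, the probe with the smallest difference, platform symbols as given and, added after seeing the data, columns without subtracting the control left the counts of calls within 1.5 times. Single members moved in 30 of 350 values for CNT-1, 100 of 350 for CNT-2 and 98 of 315 for CNT-2 minus CNT-1. Signal over background is not in the table, so which members lay near background could be judged only from the control value, where 1 of 40 member probes was background-like.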

Other observations

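Direct reversal and translesion genes, which undo base damage or copy past it, belonged to none of the member classes. Of 12 measured, 2 (16.7%) were at least 2-fold lower in CNT-2 and none higher, beside 6.56% and 10.1% of all genes. The median of the 12 was -0.29. The lower ones were Alkbh2, a demethylase of alkylated DNA that stood at -0.05 in control, -0.11 in CNT-1 and -1.21 in CNT-2, and Hltf, given above. Its relative Alkbh3 lay on the other side of control, at 0.00, 0.04 and 0.65. Mgmt, which takes methyl groups off guanine, was at -0.09, 0.02 and -0.85, and the translesion scaffold Rev1 at 0.005, -0.01 and -0.60. The polymerases Polh, Poli and Polk were at -0.30, -0.10 and -0.15 against control in CNT-2, so these 3 differed little from it. In CNT-1 none of the 12 passed the threshold.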
